A study of Mus musculus with 4 samples.

Results

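The CTCF regions of mouse chromosome 3 in the B cell lymphoma line WEHI-231 numbered 1388 of 29116 in the whole series, or 4.77%. They were defined by the peak calls of all 4 libraries: peaks overlapping by at least 1 bp were merged, and every merged region on chromosome 3 was taken. A required score of at least 100 would leave 856. The libraries were CTCF ChIP-seq of cells with a stable TFII-I knockdown (2 replicates) and of control cells (2 replicates), all of the same (BALB/c x NZB)F1 line, precipitated with the same commercial CTCF antibody. Nothing states that replicates came from separate cultures, or that the knockdown cells are more than 1 clone, so the spread between replicates may be technical. The degree of the knockdown was not analysed here. Because calls made the regions and the chromosome was chosen with results in view, counts of called regions below are descriptions without a test. Only peak numbers and shares per library were tested, and 2 libraries per group are too few for that test to decide.

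CTCF, a DNA-binding protein with zinc fingers, occupies insulators, promoters and the bases of chromatin loops, where it halts the cohesin complex. TFII-I, the product of Gtf2i, is a transcription factor of promoters and signalling pathways, and the title of the series asks about its part in bringing CTCF to promoters. Mouse chromosome 3, like the other mouse autosomes, has its centromere at the low-coordinate end, and it carries genes of lymphocyte biology such as Nfkb1, Lef1, Bcl10, Il2 and Cd2. Positions are those of the deposited lists, build mm9, and no gene is assigned to them.

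Chromosome 3 held fewer CTCF peaks in the knockdown lists than in the control lists, but a larger share of each list. Knockdown replicates 1 and 2 had 948 and 799 peaks on the chromosome, against 1171 and 1157 in control replicates 1 and 2. Both knockdown values lay below both control values. The mean was 873.5 ± 105 (SD, n = 2) in knockdown and 1164 ± 9.90 (SD, n = 2) in control libraries, the knockdown value being 75.0% of that in controls, while over the other 18 autosomes it was 70.7%. As a share of all peaks, chromosome 3 took 4.97% and 5.22% of knockdown lists 1 and 2, against 4.79% and 4.85% of control lists 1 and 2. The values of the groups did not overlap, with a mean of 5.09% ± 0.176 in knockdown and 4.82% ± 0.0427 in control libraries (SD, n = 2 each). Their intervals for counting error did overlap. These were 4.67 to 5.29% and 4.87 to 5.58% in knockdown lists 1 and 2. In control lists 1 and 2 they were 4.52 to 5.06% and 4.58 to 5.13%. How many other autosomes separate the groups by share was not counted, so the separation is not read as particular to chromosome 3. The two-sided exact permutation test gave p = 0.333 for both measures. This is the smallest value that 2 libraries against 2 allow, so the test cannot decide. Limiting each list to its 15309 strongest peaks turned the ratio of peak numbers from 0.750 to 1.05 and kept the difference in shares, at 0.225 percentage points against 0.278 with complete lists. Without knockdown replicate 2 that difference was 0.153 points. With a score of at least 100 the ratio of peak numbers was 0.449 and the difference in shares 0.541 points.

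The strength of the chromosome 3 peaks within their lists was close to that of the other autosomes. The median score was 85.95 and 82.9 in knockdown lists 1 and 2, where the other autosomes had 85.5 and 79.0. In control lists 1 and 2 it was 111 and 109 on chromosome 3, with 112 and 108 on the other autosomes, so that chromosome 3 was slightly lower in control list 1 and slightly higher in the other lists. The score scale may differ between lists, and the lower knockdown scores are not read as weaker binding. By percentile rank within the list, where 100 is the strongest peak, chromosome 3 peaks averaged 50.6 and 52.4 in the knockdown lists and 50.4 and 50.6 in the control lists. The regions called in both controls had a mean control rank of 55.0, the 11th highest of 19 autosomes, and spread evenly over the strength range: when both-control regions of all autosomes were cut into 5 equal groups by control rank, between 19.1% and 20.7% of the chromosome 3 regions fell in each.

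Chromosome 3 was the autosome with the sparsest CTCF regions. Between its first and last region it held 8.88 regions per Mb, against 9.30 on chromosome 12, the next in order, and 18.5 on chromosome 11, the densest. The density was 0.745 times that of the other 18 autosomes together. With a score of at least 100 required, 3 of the other autosomes were sparser, and with lists of equal length 1 was. In regions called in both controls, chromosome 18 was sparser by a margin in the third digit, with 6.476 per Mb against 6.484 on chromosome 3. In 5 Mb bins, chromosome 3 had a median of 41.5 regions per bin, against 48 over the 472 bins of the other autosomes, and 20 of its 32 bins lay below that value.

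The regions were spread unevenly along the chromosome. The densest bins were bin 18 (85 to 90 Mb) with 144 regions, bin 20 (95 to 100 Mb) with 112 and bin 19 (90 to 95 Mb) with 81. The 5 densest bins were neighbours, bins 18 to 22, and together held 490 regions, or 35.3% of the chromosome. The lowest counts were in bin 10 (45 to 50 Mb) with 3 regions and bin 15 (70 to 75 Mb) with 5, followed by bins 1 and 23 with 6 each. Bin 1 held no region before 3001609, so its count comes from part of the bin and is not a density over 5 Mb. Bins under 10 regions made up 12.5% of chromosome 3 and 5.72% of the other autosomes, without correction for partly covered bins at the chromosome ends. All 4 libraries shared this outline: bin 18 had 105 and 87 peaks in knockdown lists 1 and 2 and 129 and 121 in control lists 1 and 2, while bin 10 had 1 and 1 in the knockdown and 2 and 3 in the control lists.

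**Figure D1:**
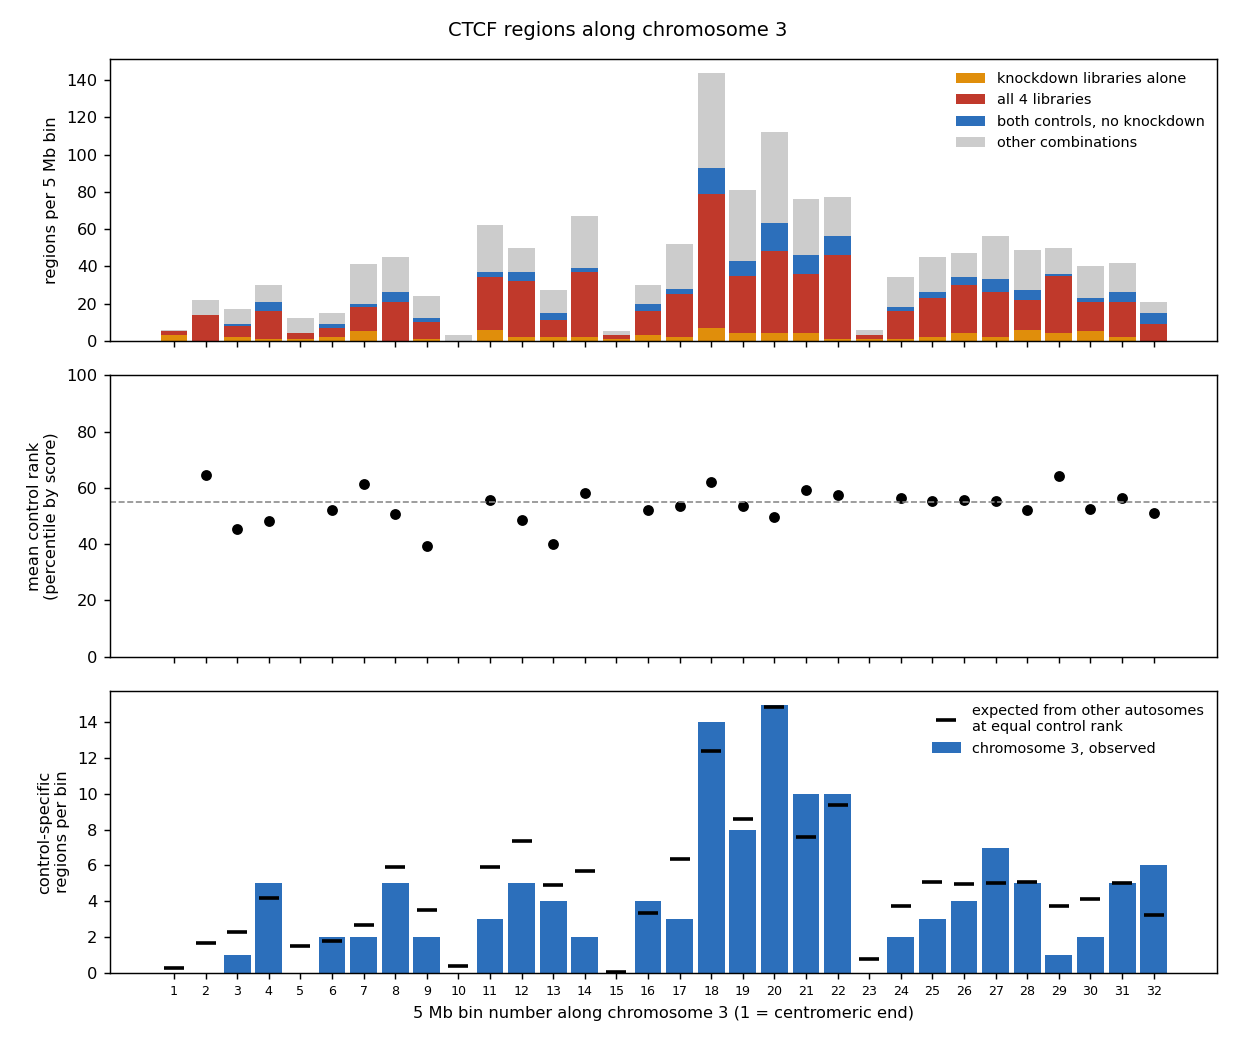
Regions per 5 Mb bin by class (top), mean control rank of regions called in both controls in bins with at least 10 of them (middle, dashed line at the chromosome's mean of 55.0), and control-specific regions (bottom, bars) with the number expected from the other autosomes at equal control rank (black marks), by bin number from the centromeric end. Regions peak at 144 in bin 18 and control-specific regions pass the marks in bins 18, 20, 21, 22, 27 and 32 and a few sparse bins.

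Strength did not run with density in the same order. Among the 27 bins with at least 10 regions called in both controls, the mean control rank ran from 39.3 in bin 9 (40 to 45 Mb) to 64.5 in bin 2 (5 to 10 Mb). Bin 2 held only 22 regions in all, while the dense bin 18 had a mean control rank of 62.0 and bin 20 one of 49.5.

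Long stretches without a CTCF call separated the regions. The longest, of 3.55 Mb, ran from 109329659 to 112883573, from the distal edge of the dense part into bin 23 (110 to 115 Mb). The next, of 3.53 Mb, ran from 45123494 to 48650084 in bin 10, and the third, of 2.85 Mb, from 75872371 to 78723338 in bin 16. These were not unusual in length, since the longest gap on the other autosomes reached 7753 kb. Gaps of at least 500 kb numbered 58 and took 42.4% of the sequence between regions on chromosome 3, against 36.8% on the other autosomes. The median gap was 34.6 kb on chromosome 3 and 28.3 kb elsewhere, while pairs within 2 kb were about as frequent, at 6.42% and 6.63% of gaps. Regions wider than 1 kb were fewer, 7 of 1388 (0.504%) against 275 of 26793 (1.03%) on the other autosomes.

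Most chromosome 3 regions were called in all 4 libraries or in both controls and 1 knockdown library. All 4 libraries had a call in 631 of 1388 regions, or 45.5% (95% interval 42.8 to 48.1%), against 40.4% of the regions of the other autosomes and 40.3% of all regions of the series. With the complete lists this was the highest share of the 19 autosomes, and the next was 43.8% on chromosome 14. With a score of at least 100 the share was 15.1% and 7th of 19, and with lists of equal length it was 40.4% and 2nd. Regions called in control libraries alone made up 22.6% (314 of 1388), the lowest share of the 19 with the complete lists, against 25.3% on the other autosomes and 25.2% in the series. Calls from the knockdown side only made up 5.76% (80 of 1388), near the 5.58% of the other autosomes and the 5.84% of the series.

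Of the 1014 regions called in both controls, 631 (62.2%, 95% interval 59.2 to 65.2%) were called in both knockdown libraries, against 56.2% on the other autosomes and 56.5% in the series. In 130 regions (12.8%, 10.8 to 15.0%) neither knockdown library had a call, against 14.9% on the other autosomes and 14.8% in the series. These 130 are named control-specific here. The share depends on the lists used: it was 35.9% with a score of at least 100, 5.46% with lists of equal length, 31.2% without knockdown replicate 1, 19.4% without knockdown replicate 2, 18.6% without control replicate 1 and 19.6% without control replicate 2. The other 253 (25.0%) were called in a single knockdown library, against 28.9% on the other autosomes. Of these, 186 were in replicate 1 and 67 in replicate 2, or 13.4% and 4.83% of all chromosome 3 regions. The other autosomes had the same skew, with 15.3% and 5.48% of all their regions.

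**Figure D2:**
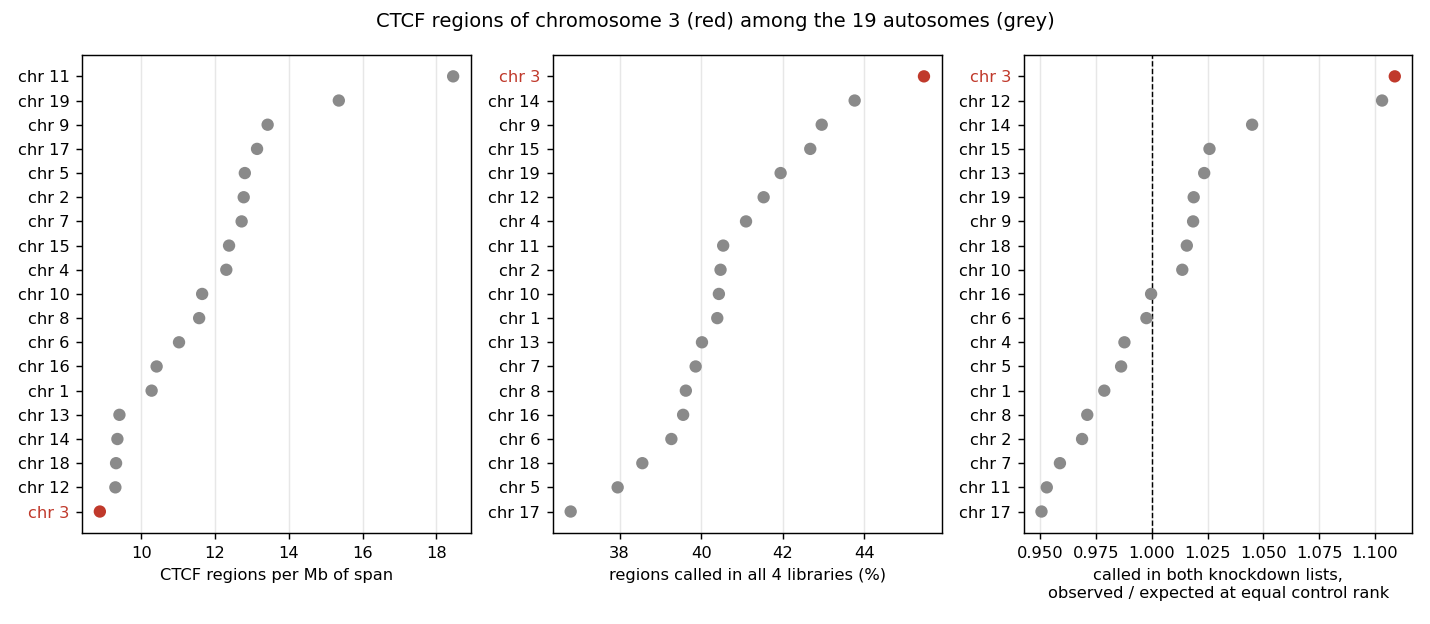
Density of CTCF regions (left), share of regions called in all 4 libraries (middle) and regions called in both knockdown lists as observed over expected at equal control rank (right) for the 19 autosomes, each ordered by its value, with chromosome 3 in red. With these complete lists chromosome 3 stands lowest at 8.88 regions per Mb, and highest at 45.5% and at a ratio of 1.11.

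The difference in knockdown calls was still present at equal control rank. Weak control peaks lack a knockdown call more often, so each chromosome 3 region was set beside the regions of the other autosomes in the same of 20 bins of control rank. From these, 569 regions were expected in both knockdown lists and 631 were observed, a ratio of 1.11 with a counting interval of 1.05 to 1.16. The ratio of the other autosomes ran from 0.951 on chromosome 17 to 1.10 on chromosome 12, so chromosome 3 was first by a small margin. Each knockdown library gave the same order: 817 regions were called in knockdown replicate 1 where 785 were expected (ratio 1.04), and 698 in replicate 2 where 646 were expected (1.08), each the highest of the 19 with the complete lists. With a score of at least 100 required the ratio was 1.09 and 5th of 19, and with lists of equal length it was 1.08 and 2nd.

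Fewer control-specific regions were found than at equal control rank elsewhere, within counting error. There were 130 against 151 expected, a ratio of 0.859 with a counting interval of 0.725 to 1.01. Chromosomes 18 and 16 had lower ratios, the lowest being 0.786 on chromosome 18, and chromosome 11 had the highest at 1.19. This interval and that of the ratio for both knockdown lists treat neighbouring regions as independent and compare these 4 libraries only.

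The difference appeared in each of the 5 groups of control strength for calls in both knockdown lists. In the weakest group, 27.7% (21.7 to 34.4%) of 202 chromosome 3 regions were called in both, against 20.7% on the other autosomes. In the second the shares were 48.3% (41.3 to 55.3%) and 38.8%, and in the third 64.4% and 58.2%. In the fourth they were 77.1% and 74.3%, and in the strongest 93.5% and 89.0%. The interval of chromosome 3 lay above the value of the other autosomes in the weakest, the second and the strongest of these groups, and held that value in the third and the fourth. Such intervals cover counting error only, on a chromosome chosen with results in view, and are not a test. The control-specific share was 37.6% on chromosome 3 and 40.7% elsewhere in the weakest group, and 3.33% and 3.23% in the fourth. In the strongest, 0 of 201 chromosome 3 regions were control-specific (exact 95% interval up to 1.82%), against 27 of 3850 (0.701%) on the other autosomes.

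**Figure D3:**
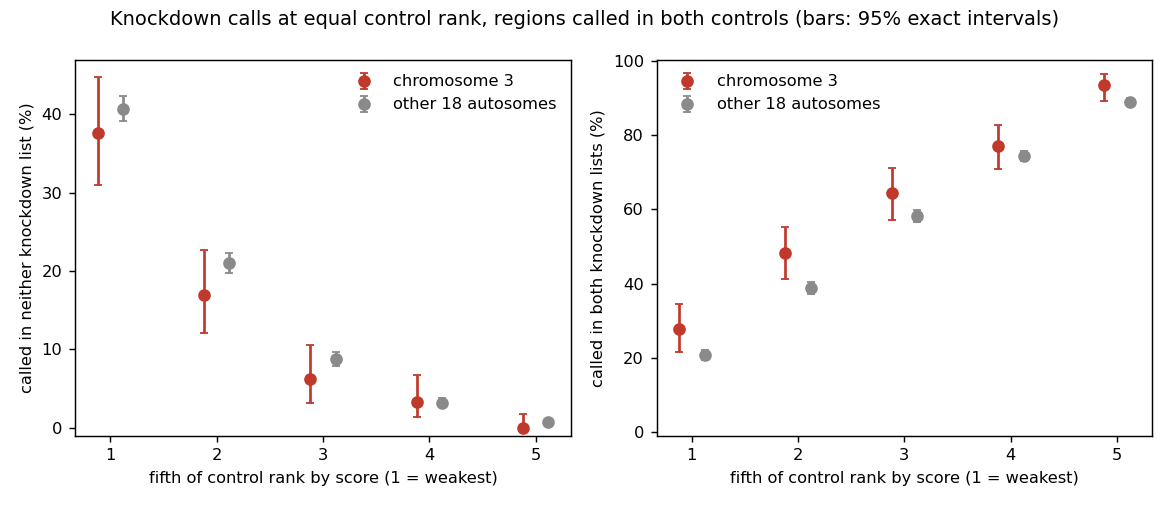
Share of regions called in both controls that had no call in either knockdown list (left) and a call in both (right), by control rank in 5 groups of equal size, for chromosome 3 (red) and the other 18 autosomes (grey); bars are exact 95% intervals for counting error. The chromosome 3 points for both knockdown lists lie above the grey ones in each group, for example 48.3% against 38.8% in the second.

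The overlap was also taken between pairs of single lists. The peaks of each library on chromosome 3 were looked up in each other list and compared with peaks of equal rank on the other autosomes, in 12 ordered pairs. Control replicate 1 peaks were found in knockdown replicate 1 for 73.2% where 70.1% were expected, and in knockdown replicate 2 for 62.4% where 57.1% were expected. Control replicate 2 peaks gave 74.0% with 71.1% expected and 63.4% with 58.4% expected. Between the knockdown lists, 70.7% of replicate 1 peaks were found in replicate 2 with 65.8% expected, and 83.7% of replicate 2 peaks in replicate 1 with 82.4% expected. Between the control lists, 86.8% of replicate 1 peaks were found in replicate 2 with 85.6% expected, and 87.9% in reverse with 87.6% expected. All 6 searches in a knockdown list came out above expectation, with ratios from 1.02 to 1.09, and 5 of them were the highest of the 19 autosomes. The 6 searches in a control list gave ratios from 0.990 to 1.02, and 3 of them were below 1. The search of control replicate 1 peaks in control replicate 2 was also the highest of the 19 autosomes, and it stood 1.29 percentage points above expectation, beside 1.28 points for knockdown replicate 2 peaks in knockdown replicate 1. Searches in a control list were expected to find between 85.6% and 92.4% of the peaks, which leaves little room for a ratio above 1, so the ratios of the 2 kinds of search are not on equal terms. These pairs reuse the same 4 lists and are not independent. At equal rank in the knockdown lists, 631 of the 667 chromosome 3 regions called in both of them were called in both controls, where 634 were expected.

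**Figure D4:**
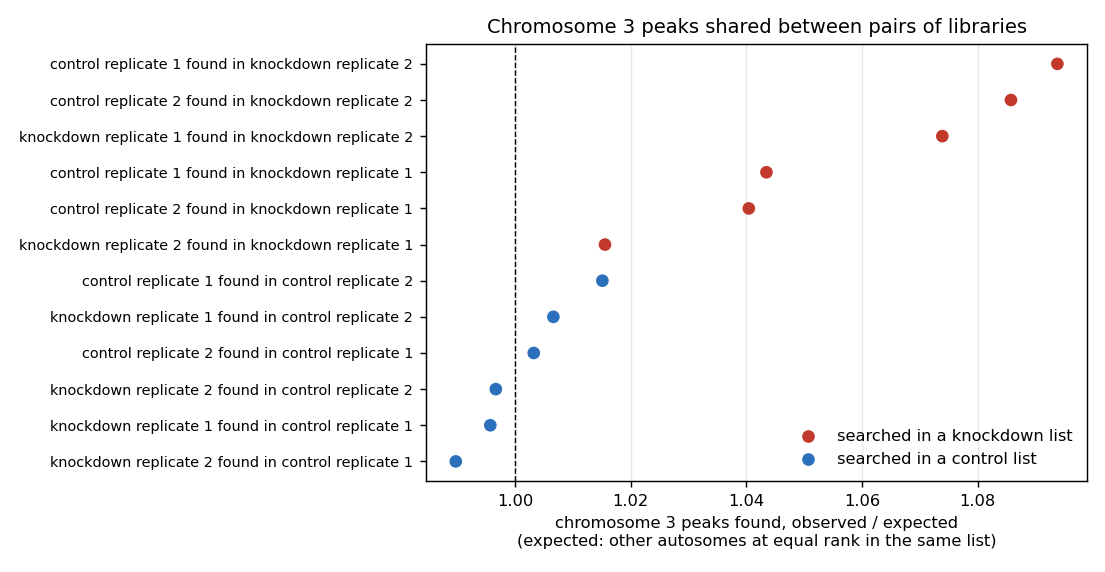
Chromosome 3 peaks of 1 list found in another, as observed over expected from the other autosomes at equal rank, for 12 ordered pairs; red points are searches in a knockdown list and blue points searches in a control list. The red points run from 1.02 to 1.09 and the blue ones from 0.990 to 1.02.

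Along the chromosome, 18 of the 27 bins with at least 10 regions called in both controls held fewer control-specific regions than expected, and 21 held more regions called in both knockdown lists. The lowest ratios were in bin 2 (5 to 10 Mb), with 0 of 18 regions control-specific where 1.68 were expected, in bin 29 (140 to 145 Mb), with 1 against 3.76, and in bin 14 (65 to 70 Mb), with 2 against 5.67. The highest were in bin 32 (155 to 160 Mb), the distal end, with 6 of 17 against 3.23, in bin 27 (130 to 135 Mb), with 7 against 5.02, and in bin 21 (100 to 105 Mb), with 10 against 7.59. Counts this small vary widely by counting alone. The dense bins 18 to 22, put together after their values were seen, held 57 control-specific regions where 52.8 were expected (ratio 1.08), and the other 27 bins held 73 where 98.5 were expected (0.741). Regions called in both knockdown lists stood at 1.03 times the expected number in the dense bins and at 1.16 times in the others.

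Part of this pattern was shared with the rest of the genome. Each region with a call in both controls was put in 1 of 3 classes by the number of other such regions within 250 kb. The sparsest class, with at most 5 neighbours, held 47.4% of the chromosome 3 regions and 33.2% of those of the other autosomes. In that class the number called in both knockdown lists was 1.15 times the number expected from control rank on chromosome 3 and 1.05 times on the other autosomes. In the densest class, with 11 or more neighbours, it was 1.01 times on chromosome 3 and 0.959 times elsewhere. The expected number was then taken from control rank, in 10 bins, and local density together. By this, 576 regions were expected in both knockdown lists against 631 observed, a ratio of 1.10. For control-specific regions, 149 were expected against 130 observed, a ratio of 0.872. With 10 bins of control rank alone the ratios were 1.11 and 0.863.

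Control-specific regions did not form long blocks. Of the 130, 37 (28.5%) had another control-specific region as a direct neighbour among the regions called in both controls, against 24.3% of the other 884. They were weaker and narrower than the regions called in all 4 libraries. Median scores in control lists 1 and 2 were 81.4 and 72.3 against 145 and 141, and the median width was 552 bp against 641 bp. Weak control peaks lack a knockdown call more often, and joining peaks of more lists can only widen a region. Both differences are thus partly set by how the classes are made, and were not compared with the other autosomes.

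The control-specific regions of highest control rank were the following 6, none of which had a knockdown call. The first, from 89032013 to 89032484 in bin 18, spanned 472 bp and scored 186 and 141 in control lists 1 and 2. The nearest knockdown peaks were 11793 and 11661 bp away in replicates 1 and 2. It lay in a crowded stretch, with 12 other regions within 100 kb. The second, from 27081535 to 27081920, scored 180 and 118 in control lists 1 and 2, and its nearest knockdown peaks were 54171 and 54272 bp away.

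The next pair lay in the dense part. The region from 92856691 to 92857562 scored 110 and 179 in control lists 1 and 2, and the region from 89589187 to 89589797 scored 138 and 133. Then came 2 others: the region from 93397333 to 93397833, scored 118 and 153, and the region from 30956162 to 30956757 scored 173 and 104 with a knockdown peak as near as 2736 bp. This last region had percentile ranks of 80.2 and 47.7 in control lists 1 and 2, so the controls themselves ranked it differently.

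The 80 regions with knockdown calls and no control call were weak. Their number was 46 with a score of at least 100 and 199 with lists of equal length, 35 without knockdown replicate 1, 53 without knockdown replicate 2, and 135 without either control. Median scores of the 80 with complete lists were 64.3 in knockdown replicate 1 (53 regions) and 59.7 in replicate 2 (35 regions), near the lowest score of 50. Only 8 were called in both knockdown lists and in neither control, or 1.20% of the 667 with a call in both knockdown lists (95% interval 0.519 to 2.35%); the share was 1.01% on the other autosomes and 1.14% in the series. They scored between 52.9 and 135 in knockdown replicate 1 and between 57.9 and 102 in replicate 2. The highest in rank, from 148715344 to 148715813 in bin 30, scored 135 and 90.8 in knockdown replicates 1 and 2 and had no other region within 100 kb. The second, from 126698928 to 126699346, scored 93.1 and 69.9, with control peaks 16010 and 16040 bp away. The third, from 33062830 to 33063151, scored 56.8 and 102. Other members also lay far from any control peak: the region from 139611908 to 139612462 was 650734 and 650593 bp from the nearest peaks of control lists 1 and 2, and the region from 29711824 to 29712150 was 779020 and 779041 bp away. At the other extreme, the region from 141931957 to 141932568 lay 5354 and 5284 bp from the nearest control peaks.

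Among the 631 regions called in all 4 libraries, the 5 strongest by mean rank had ranks between 97.6 and 99.9, and did not all hold the top places in each list. The first by mean rank, from 56379125 to 56379835 in bin 12, scored 1135 and 668 in knockdown lists 1 and 2, and 921 and 986 in control lists 1 and 2. Its rank was between 99.8 and 99.9 in every list, and no other region lay within 100 kb. The region from 135394058 to 135394760 in bin 28 scored 666 and 534 in the knockdown and 826 and 895 in the control lists. The region from 8244679 to 8246805 in bin 2 was also the widest of the chromosome, at 2127 bp, and scored 1138 and 592 in the knockdown and 778 and 796 in the control lists. The remaining pair of the strongest 5 were both in bin 25, from 122341405 to 122342012 and from 121587674 to 121588385. No filter for repeat-like sequence was applied. None of these reached the ceiling score of 3100 that other chromosomes show.

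At the ends of the covered span, the first region, from 3001609 to 3002010, was called in knockdown replicate 1 (score 79.4) and control replicate 1 (58.4) alone. The last, from 159387296 to 159388020, was called in all 4 libraries, with scores of 172 and 159 in the knockdown and 269 and 294 in the control lists. In bin 1, at the centromeric end, 3 of 6 regions had knockdown calls only, each in a single knockdown list with a score between 66.8 and 74.0. Such regions made up 5.76% of chromosome 3 and 5.84% of the series.

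The order by score of the 631 regions called in all 4 libraries was compared between groups. Each region's percentile rank among such autosomal regions was taken per library, knockdown minus mean control rank was computed, and the mean of the other autosomes at equal control rank was removed. The mean difference was 1.77 ± 0.751 percentile points (SE over 631 regions), 0.811 ± 0.971 in knockdown replicate 1 and 2.74 ± 1.02 in replicate 2. Single regions varied far more, with an SD of 18.9 points, and 54.2% of them lay above 0, against 50.6% on the other autosomes. The other autosomes ran from -2.02 on chromosome 17 to 1.65 on chromosome 18. The difference between knockdown replicates is larger than the mean itself, and no test over regions was made. Without knockdown replicate 2 the value was 0.920 points, without knockdown replicate 1 it was 2.86, and with a score of at least 100 it was 0.585.

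By bin, the rank difference was uneven and often unlike in the knockdown libraries. Of 22 bins with at least 10 such regions, 14 were above 0, but 13 had opposite signs in the knockdown libraries, 7 were above 0 in both and 2 below 0 in both. Bin 24 (115 to 120 Mb) was the highest, with 15.1 ± 3.51 points (SE over 15 regions), at 16.5 in knockdown replicate 1 and 13.6 in replicate 2. Bin 21 was the lowest, at -4.25 ± 3.49 points. Both bins were picked as the extremes of the 22. The SE is taken over regions of the same libraries and does not measure the spread between knockdown libraries. The dense bins 18 to 22 had a mean of -0.904 points and the other bins one of 3.25 points.

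**Figure D5:**
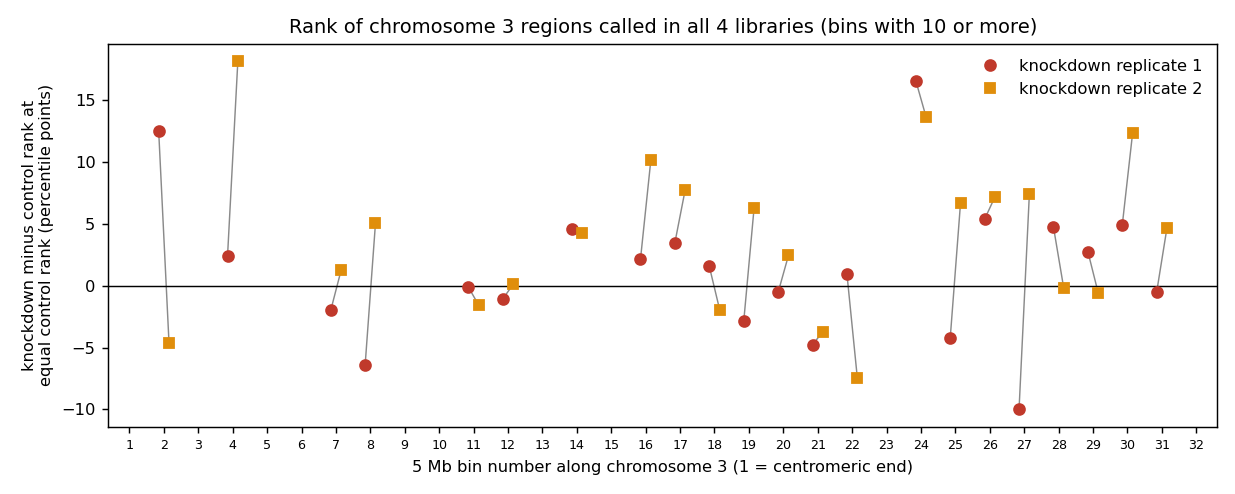
Rank of regions called in all 4 libraries, knockdown minus control at equal control rank in percentile points, as the mean per 5 Mb bin for knockdown replicate 1 (circles) and replicate 2 (squares) in bins with at least 10 such regions. Bin 24 is high in both libraries, at 16.5 and 13.6 points, and 13 of 22 bins have opposite signs.

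The regions with the largest mean difference over both knockdown libraries are given for their scores. The region from 4743494 to 4744081 in bin 1 scored 238 and 183 in knockdown lists 1 and 2, above its own control scores of 152 and 124 although knockdown scores are lower as a whole, and stood 47.9 points higher. The region from 15244916 to 15245429 in bin 4 scored 177 and 138 in the knockdown and 115 and 144 in the control lists, with a difference of 46.7 points. The regions from 145720933 to 145721672 and from 87990173 to 87990882 stood 46.3 and 45.1 points higher.

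In the other direction, the region from 108204399 to 108205125 in bin 22 scored 69.0 and 82.8 in knockdown lists 1 and 2, against 368 and 249 in control lists 1 and 2, a difference of -54.5 points. The region from 96081808 to 96082765 in bin 20 scored 67.8 and 52.0 in the knockdown and 221 and 180 in the control lists, a difference of -52.3 points. The regions from 32393168 to 32393850 and from 102973594 to 102974272 stood at -41.9 and -41.5 points. All 4 of these kept a call in both knockdown lists, so they do not count as control-specific, although their control scores were higher than those of the strongest control-specific region in at least 1 control list. These 8 regions were the extremes of 631 and were picked by this difference, so their sizes, and the like sign in both knockdown libraries that such a choice favours, are a description.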

How the data were processed

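CTCF ChIP-seq was analysed in 2 TFII-I knockdown and 2 control libraries of WEHI-231, each deposited by the authors as its own peak list with a position and a score per peak. BWA, HOMER and mm9 are listed in the submitters' processing notes without roles or versions, and the peak names in the files carry the word MACS; the caller's settings and input, if any, were not found in the labels or files. The deposited score has no stated definition, no tag counts come with it, and the depth of the libraries is unknown, so scores served to rank and filter peaks within a list. A list from fewer tags would hold fewer and lower-scoring peaks.

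Peaks overlapping by 1 bp or more across the 4 lists were joined, with the highest score per library. Coordinates are read as counted from 1. Control rank is the mean of the percentile ranks by score in both control lists. Expected numbers are the shares found on the other 18 autosomes in the same of 20 bins of control rank. Where local density was matched too, 10 bins were used. Shares carry exact 95% Clopper-Pearson intervals, which cover counting error only. Library values were compared with two-sided exact permutation tests; shares and ranks over regions were not tested. The chromosome, the tests and the lists were chosen with earlier results of these data known. Named regions are the strongest 5, the 6 control-specific and 3 knockdown-specific regions of highest rank, the 4 largest rank differences in each direction, the end regions, the 3 longest gaps and the 3 bins at each extreme; 3 further knockdown-specific regions and bins 9 and 24 were named after their values were seen. Alternatives were a score of at least 100, lists cut to 15309 peaks, other merging distances, other rank bins, rank by a single control, 10 Mb bins, and leaving out each library. Python 3.11.15 was used with numpy 2.4.6, pandas 2.3.3, scipy 1.17.1 and matplotlib 3.10.9. Merging, the classes and the expected number of control-specific regions were tried on lists simulated from control replicate 1. There the replicates of a group were identical, unlike the data, and the other steps were not tried. No sequence or gene is given at a position, since the gene table at hand is for GRCm38.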

Additional observations from a re-analysis of the deposited data

How the results depend on the processing

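Of the ratios at equal control rank, that of control-specific regions stayed between 0.732 (equal length) and 0.895 (score of at least 100), and that of regions called in both knockdown lists between 1.04 (without knockdown replicate 2) and 1.12 (without control replicate 2). The matching on local density and the second ratio were chosen after seeing the data. With lists of equal length the ratio of peak numbers was 1.05, against 0.750, which equal lengths bring about by construction; the control-specific share was 5.46% against 12.8%, and 199 regions had knockdown calls only, against 80. With a score of at least 100 the regions numbered 856 against 1388, the control-specific share was 35.9%, and 46 regions had knockdown calls only; fewer peaks enter by construction. Leaving out 1 library gave a control-specific share of 18.6% (without control replicate 1) to 31.2% (without knockdown replicate 1), and 35 (without knockdown replicate 1) to 135 (without either control) regions with knockdown calls only, since fewer calls are then required or counted. The mean control rank was 50.4 to 55.0, as 1 control then sets which regions count. In 10 Mb bins, 75.0% of 16 bins were below expectation, against 66.7% of 27. Replicate numbers did not pair the libraries (correlation of their deviations 0.0120 over 11448 regions). With the replicate block the exact sign-flip test gave p = 0.5 for the ratio of peak numbers, 0.750, and for the difference in shares, 0.278 points, the smallest that 2 pairs allow. The depth of the libraries is unknown, so its part in the shorter knockdown lists was not tested.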
